A study of Lathyrus oleraceus with 6 samples.

Results

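Among the loci that pea roots already transcribed in control medium, 79 reached abundance after treatment with deacetylated chitooligosaccharides (CO8-DA) at a level at least 2 times that of the control. They were chosen from the count table of 44756 loci by their own values. A locus was taken when its control counts summed to more than 3, when its mean level after CO8-DA was at least 50 CPM (counts in each 1000000 of the library, that is, the count divided by the total of its library and multiplied by 1000000) and at least 2 times the control mean, and when every CO8-DA library lay above every control library. Of the 87 loci that met these conditions, 8 were left out by name. Because the comparison of CO8-DA with control chose the loci, their values in it are a description and carry no test.

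Both groups were wild-type (WT) seedlings of pea cultivar Frisson, 4 to 5 days old, kept in jars for 24 h on Jensen's medium at 0.5x strength. The CO8-DA group received 1e-05 M CO8-DA, short chitosan chains of about 8 sugar units, and the control group the medium alone. Whole roots were harvested, and 3 libraries were sequenced per group, described in the study as independent biological repeats of several pooled plants each. The deposited counts summed to 12955804, 15527374 and 19534336 in CO8-DA replicates 1, 2 and 3 and to 14492483, 12315774 and 14484749 in control replicates 1, 2 and 3, and values below are given in that order of replicates. The labels give 1 cultivar and 1 time point. An exact permutation test of 1 locus could reach a two-sided p of 0.1 at best with groups of this size.

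Plants perceive chitin fragments through receptors with LysM domains at the cell surface, and a calcium influx, an oxidative burst and protein phosphorylation follow. Later responses include extracellular hydrolases and germins, strengthening of the cell wall through laccases, peroxidases and dirigent proteins, and export of defence compounds by ABC transporters. Pea makes the isoflavonoid phytoalexin pisatin, for which isoflavone synthase, isoflavone reductase and sophorol reductase catalyse steps of the pathway. Names of loci are best database matches from the study's supplementary annotation. They were at hand for all 79 loci, and no gene coordinates or sequences of this annotation were used. Chromosomes were read from the identifiers. In whole roots, more RNA per cell and more cells of a type cannot be told apart. No marker list of root cell types could be matched, so the root label was not checked. Of 6 annotated loci named for the root cap or nodulins, 4 were detected in all libraries, and 2 of those 4 belong to the set described here. Most of the 6 match nodulin MtN21/EamA-like transporters, and their detection does not check the label.

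The 79 loci together took 0.822%, 0.752% and 0.806% of all counts in the CO8-DA libraries, against 0.305%, 0.162% and 0.264% in the control libraries. Their summed level averaged 7930 ± 365 CPM after CO8-DA and 2441 ± 737 CPM in the control (SD, n = 3 each), a ratio of 3.25. The ratio of mean CPM had a median of 3.11 over the 79 loci and ran between 2.03 and 64.6. It was under 3 at 37 loci, 3 to under 10 at 35 loci and at least 10 at 7 loci. The median log2 ratio was 1.64, beside 0.01 over the 21281 tested loci with control counts and 0.04 over the 4304 tested loci with a mean of at least 50 CPM after CO8-DA. Most of the set was expressed at a moderate level without treatment. The control mean was 10 to under 50 CPM at 60 loci, under 10 CPM at 10 loci and at least 50 CPM at 9 loci.

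**Figure D1:**
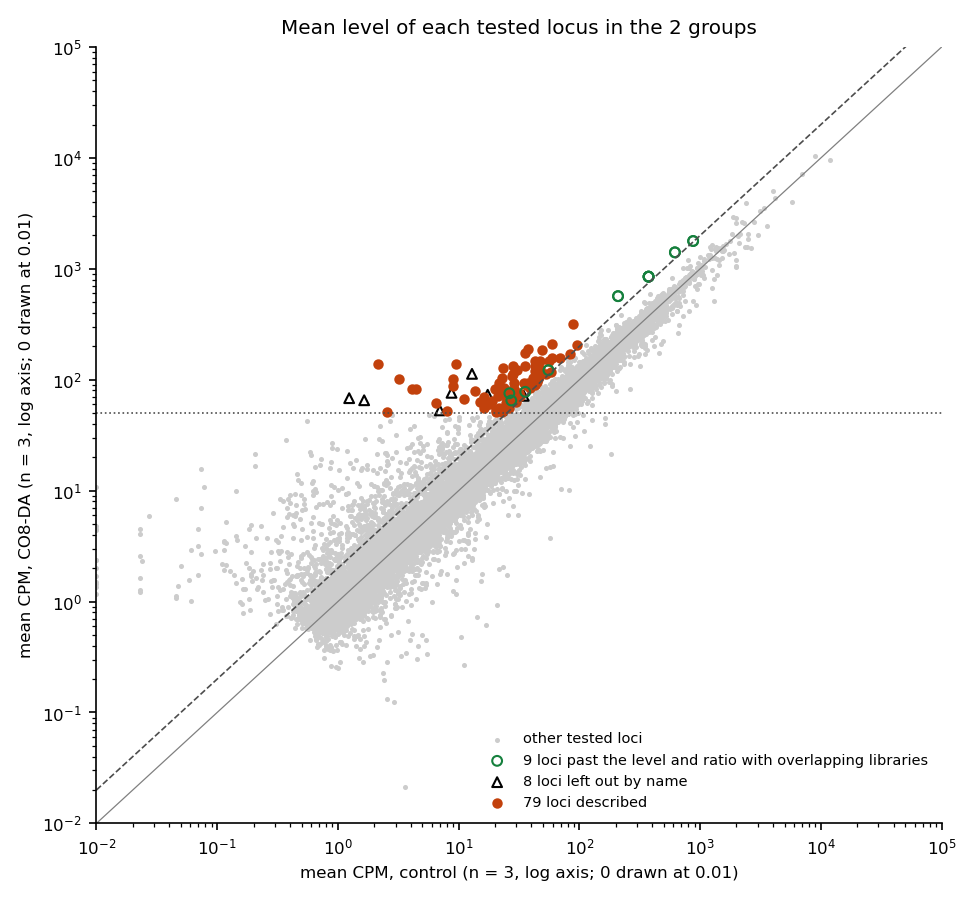
Mean CPM of each tested locus after CO8-DA (vertical) against the control (horizontal), both on log axes, with the line of equal levels (solid), the line of a ratio of 2 (dashed) and the level of 50 CPM (dotted). The 79 loci described (filled) lie above both limits with control means between 2.16 and 95.7 CPM, and the 9 loci that met both limits but had overlapping libraries (green) include the most abundant loci past both limits.

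All 79 loci passed the filter on low counts and entered the edgeR quasi-likelihood test of 21293 loci. At a Benjamini-Hochberg adjusted p under 0.05 and a log2 fold change of at least 1, 561 loci (2.63% of those tested) were called higher after CO8-DA and 105 (0.493%) lower. The calls include 58 of the 79 loci, a count that the choice of the loci largely fixes. DESeq2, which called 2.94% of its tested loci higher, called 69 of the 79, and 10 loci were called by neither tool. The 21 loci that edgeR did not call include Psat1g085360, Psat1g086000, Psat1g086520, Psat1g186560, Psat1g198720, Psat2g026840, Psat2g027040, Psat3g067480, Psat4g088800, Psat4g106160 and Psat4g188080. The rest of the 21 are Psat5g126680, Psat5g233760, Psat5g300680, Psat6g081800, Psat7g109400, Psat7g118080, Psat7g151200, Psat7g151720, Psat7g151760 and Psat7g224320. Every CO8-DA library lay above every control library at 13.9% of all tested loci. The called loci of the set were 10.3% of the 561 higher loci and held 45.0% of the CPM that those loci gained together. The limits on level and ratio select loci with a large gain, so this share follows largely from the choice.

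The limits cut through a continuous range of values. Just inside the limit on the ratio were Psat5g300680 (plant/F18G18-200 protein) at 2.03, Psat6g159040 (ABC transporter B family) at 2.04 and Psat1g086520 (short-chain alcohol dehydrogenase A) at 2.11. Just outside were the laccase Psat0s3074g0040 at 1.98, the xyloglucan glycosyltransferase Psat1g060240 at 1.94 and Psat4g044160, with no name at hand, at 1.92. At the limit on the level, the GDSL-like lipase Psat6g081800 averaged 50.7 CPM after CO8-DA and was inside, as were Psat0s1368g0080 (Hop-interacting protein THI031) at 50.8 CPM and the alcohol dehydrogenase Psat1g085360 at 51.3 CPM. The hydroxyproline-rich glycoprotein Psat5g291120 at 49.1 CPM, the calmodulin-binding-like protein Psat7g011400 at 48.2 CPM and the papain-type protease Psat1g198680 at 48.1 CPM were outside. Another 9 loci failed only because libraries overlapped. In the chitinase 2-like locus Psat1g150520, CO8-DA libraries had 77.0, 51.1 and 98.6 CPM, against 17.5, 6.66 and 54.7 CPM in control libraries. The extensin-2-like locus Psat1g083480 had 735, 769 and 196 CPM after CO8-DA, against 246, 180 and 201 CPM in the control.

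Pathogenesis-related and extracellular defence proteins formed a group of 9 loci, with a median ratio of 3.81 and 3 of the 7 ratios of at least 10. Psat1g147560 encodes a glycoside hydrolase of family 18, the family that includes many plant chitinases, and had 212, 96.6 and 109 CPM after CO8-DA, against 3.45, 0.807 and 2.21 CPM in the control. Its ratio of 64.6 was the highest of the 79, and its lowest CO8-DA library was far above its highest control library. Germins, extracellular proteins of the cupin superfamily of which some produce hydrogen peroxide, made up 5 of the 9 loci. Psat0s26g0040 had 79, 64.5 and 103 CPM after CO8-DA, against 4.33, 1.52 and 6.41 CPM in the control. Its neighbour on the same unplaced scaffold, Psat0s26g0080, had 162, 146 and 111 CPM after CO8-DA, against 12.2, 3.44 and 13.0 CPM in the control. On chromosome 7, Psat7g151720 had 153, 161 and 244 CPM after CO8-DA, against 53.4, 11.9 and 81.2 CPM in the control.

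The germins of the scaffold thus had ratios of 20.1 and 14.6, above those of the germins on chromosome 7, which were 3.81 (Psat7g151720), 3.06 (Psat7g151200) and 2.88 (Psat7g151760). The scaffold germins were called higher, and those on chromosome 7 were not called (edgeR adjusted p = 0.121, 0.128 and 0.108, in the same order). In all 5 germin loci control replicate 2 was the lowest library, and all 5 had counts that were not whole, a sign that reads were divided between similar loci. Psat1g157000, matched to a disease-resistance response protein, had 194, 124 and 129 CPM after CO8-DA, against 56.6, 38.2 and 47.9 CPM in the control. The remaining loci were the thaumatin-family pathogenesis-related protein Psat2g181840, with a ratio of 4.14, and the beta-glucanase Psat7g179640, an enzyme class that cuts glucans of fungal walls and callose, with a ratio of 2.13.

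**Figure D2:**
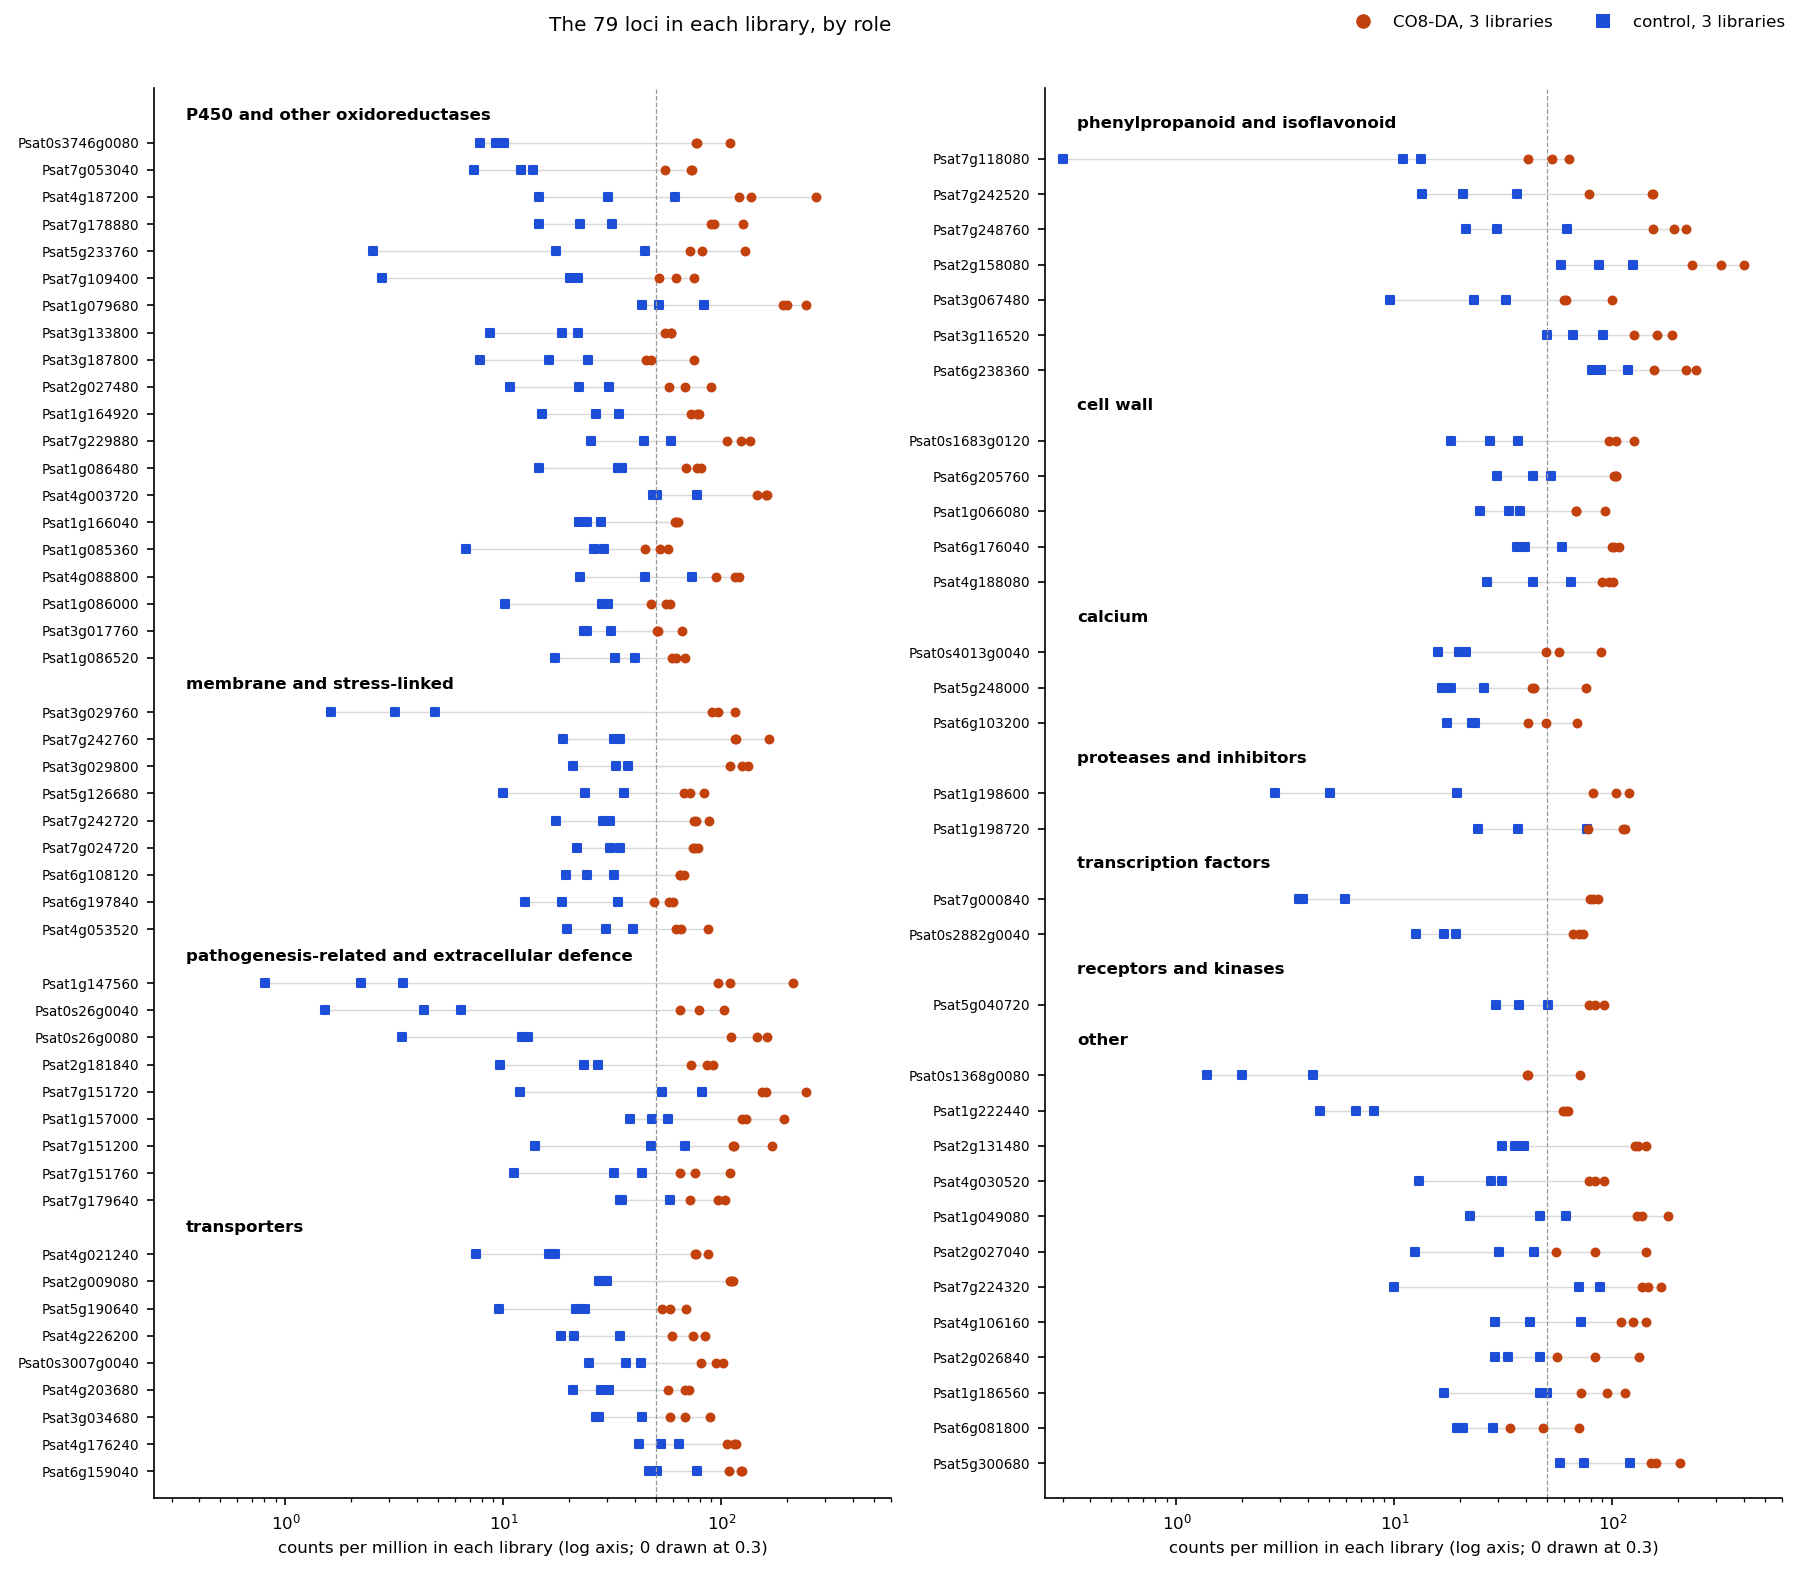
CPM of the 79 loci in each library on a log axis, with a row for each locus, grouped by role and ordered by ratio within a group (circles, CO8-DA; squares, control; dashed line, 50 CPM). No row has overlapping groups, which the choice of the loci fixed. The control squares are spread more widely than the CO8-DA circles at 71 of 79 loci by the coefficient of variation. The rule favours loci with a low control library, and the share over other loci was not computed, so this count only describes the loci.

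Loci assigned to phenylpropanoid and isoflavonoid metabolism formed a group of 7, with a median ratio of 3.53 and a highest ratio of 6.49. Isoflavone reductase (Psat2g158080), which acts late in pisatin synthesis, had 400, 232 and 315 CPM after CO8-DA, against 124, 58.1 and 86.4 CPM in the control. The groups were well apart, and CO8-DA replicate 1 and control replicate 1 were the highest library of each. Sophorol reductase (Psat3g116520), the enzyme of the step that follows in this pathway, had 188, 125 and 160 CPM after CO8-DA, against 90.6, 50.2 and 65.9 CPM in the control. Chalcone isomerase (Psat6g238360), which closes the flavanone ring, had 218, 155 and 243 CPM after CO8-DA, against 118, 80.3 and 88.7 CPM in the control. Every control library had more than 50 CPM of these enzymes, and their ratios were 3.53, 2.29 and 2.15.

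Isoflavone synthase (Psat7g118080), the P450 enzyme that leads into the isoflavonoids, had 63.1, 52.7 and 41.0 CPM after CO8-DA, against 13.3, 0 and 10.9 CPM in the control. The value of 0 in control replicate 2 is an RSEM estimate at a locus that shares reads, and the division of reads between isoflavone synthase copies is uncertain. Without control replicate 2 its log2 ratio was 2.11, beside 2.70 with all libraries. The locus was not called (edgeR adjusted p = 0.126). A dirigent protein (Psat7g248760), a class that guides the coupling of monolignol radicals, had 218, 154 and 191 CPM after CO8-DA, against 62.1, 21.4 and 29.4 CPM in the control. A laccase (Psat7g242520), a copper oxidase class that acts on phenolics in the wall, had 152, 153 and 78.2 CPM after CO8-DA, against 20.7, 13.4 and 36.5 CPM in the control. The laccase was lowest in CO8-DA replicate 3, whereas 5 of the 7 loci of this group were highest in CO8-DA replicate 1. The disease resistance-responsive protein Psat3g067480, the remaining locus, had a ratio of 3.40. Its match names no step of this metabolism.

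Other loci of the same metabolism did not all move in 1 direction. A list of 29 loci was drawn by name from the study's annotation, and 6 of them are in the set of 79. Because the annotation covers mostly loci that the study itself found changed in these libraries, the list is no independent evidence of direction. Among the 23 loci of the list outside the set, 18 were tested, of which 9 were called higher by edgeR, 3 lower and 6 not called. Higher loci included a pair of phenylalanine ammonia-lyase copies at the entry to the pathway, which share reads. A further copy, Psat0s4534g0080, was not called (log2 fold change 0.97, SE 0.33, edgeR adjusted p = 0.162). Psat3g023040 had 32.1, 26.1 and 24.6 CPM after CO8-DA, against 15.8, 10.3 and 12.1 CPM in the control (log2 fold change 1.09, SE 0.18, edgeR adjusted p = 0.0156). Psat7g170840, a cinnamoyl-CoA reductase-like protein of the monolignol branch, had 48.2, 39.9 and 36.4 CPM after CO8-DA, against 19.6, 12.2 and 12.9 CPM in the control (log2 fold change 1.46, SE 0.20, edgeR adjusted p = 0.00623). Another isoflavone synthase, Psat7g117880, is among the loci left out by name and had 82.4, 57.1 and 88.9 CPM after CO8-DA, against 14.6, 0.731 and 10.8 CPM in the control.

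In the 3 lower loci of the list every CO8-DA library lay below every control library. Chalcone isomerase 2 (Psat6g237920) had 89.4, 93.2 and 66.0 CPM after CO8-DA, against 229, 267 and 288 CPM in the control, a log2 fold change of -1.68 (SE 0.16, edgeR adjusted p = 0.00177). The direction is opposite to that of the chalcone isomerase in the set. A flavonoid hydroxylase (Psat5g201640) had 43.8, 35.9 and 38.9 CPM after CO8-DA, against 133, 185 and 171 CPM in the control (log2 fold change -2.06, SE 0.16, edgeR adjusted p = 0.000646). Caffeic acid O-methyltransferase, an enzyme of lignin precursor synthesis, had loci in both directions. Psat3g198520 had 60.1, 40.2 and 34.4 CPM after CO8-DA, against 185, 234 and 69.7 CPM in the control. It was called lower (log2 fold change -1.87, SE 0.41, edgeR adjusted p = 0.0469), and Psat3g198600 was called higher (log2 fold change 1.17, SE 0.19, edgeR adjusted p = 0.0152). Both share reads with other loci.

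**Figure D3:**
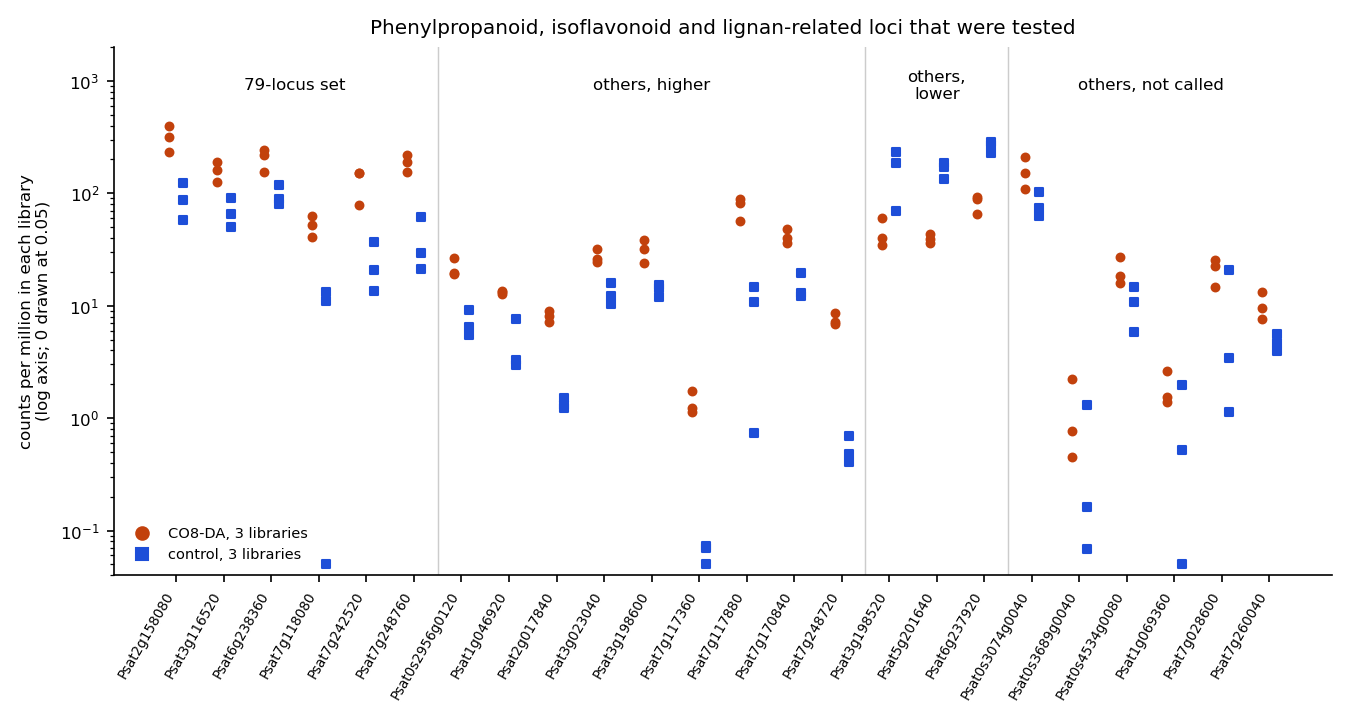
CPM in each library (log axis) of the 24 tested loci of the phenylpropanoid list, with CO8-DA circles left of control squares at each locus. The 6 loci of the set lie at the left, followed by 9 others called higher, 3 called lower, in which each CO8-DA circle lies below each control square, and 6 not called.

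Oxidoreductases were the most numerous group, with 20 loci and a median ratio of 3.21. Their summed level was 1936, 1689 and 1813 CPM after CO8-DA, against 744, 325 and 591 CPM in the control. Control replicate 2 was the lowest control library at all 20. Cytochrome P450 82A1 (Psat1g079680), from a pea P450 family known to respond to wounding, had 200, 191 and 245 CPM after CO8-DA, against 83.4, 43.0 and 51.6 CPM in the control. Another P450 locus, Psat4g187200, had 271, 121 and 136 CPM after CO8-DA, against 61.3, 14.5 and 30.2 CPM in the control. The spread of this locus was wide in both groups, with a coefficient of variation of 46.6% after CO8-DA and 67.4% in the control, and its log2 ratio was 2.32 with all libraries and 2.98 without control replicate 1.

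The protein disulfide isomerase-like locus Psat0s3746g0080 had the highest ratio of the oxidoreductases, 9.69. It had 76.6, 77.6 and 109 CPM after CO8-DA, against 9.25, 7.79 and 10.1 CPM in the control. L-ascorbate oxidase (Psat7g053040), a copper enzyme of the cell wall space, had 72.9, 73.6 and 55.2 CPM after CO8-DA, against 12.1, 7.31 and 13.7 CPM in the control. A cytochrome b561 and DOMON domain protein (Psat4g003720) had 160, 162 and 145 CPM after CO8-DA, against 77.5, 48.6 and 50.6 CPM in the control. A peroxidase (Psat7g229880), of the enzyme family that uses hydrogen peroxide on wall phenolics, had 123, 106 and 135 CPM after CO8-DA, against 44.1, 25.3 and 58.5 CPM in the control. The other oxidoreductases had ratios between 2.11 and 4.5. They include 3 FAD-binding berberine family loci (ratios of 2.5 to 4.20), 4 loci matched to short-chain alcohol dehydrogenase A (2.11 to 2.73), a glutathione S-transferase (Psat3g133800, 3.51) and a peroxidase 52-like protein (Psat2g027480, 3.39).

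Membrane and stress-linked proteins formed a group of 9 loci, with ratios between 2.42 and 31.5. The harpin-induced-like proteins, relatives of membrane proteins that are induced during the defence of tobacco and Arabidopsis, are adjacent on chromosome 3. Psat3g029760 had 96.4, 116 and 90.6 CPM after CO8-DA, against 4.83, 1.62 and 3.18 CPM in the control. Psat3g029800 had 110, 133 and 124 CPM after CO8-DA, against 37.1, 20.8 and 32.9 CPM in the control. Their ratios were thus 31.5 and 4.05, and neither locus shared reads. The plant syntaxin 122 homolog (Psat6g108120), which in Arabidopsis takes part in secretion at the plasma membrane, had a ratio of 2.60. A homolog of Hs1pro-1, a nematode resistance protein of sugar beet, had a ratio of 3.20 (Psat5g126680).

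PAR1 proteins gave 3 of these 9 loci. Psat7g242760 had 117, 115 and 165 CPM after CO8-DA, against 18.8, 34.2 and 32.0 CPM in the control. Its neighbour Psat7g242720 had 76.8, 74.7 and 87.8 CPM after CO8-DA, against 17.4, 30.8 and 28.7 CPM in the control. In these loci control replicate 2 was the highest control library, which was the case at only 2 of the 79 loci. The other PAR1 locus (Psat6g197840), a band 7 domain protein (Psat4g053520) and a B2 protein-like locus (Psat7g024720) had ratios between 2.42 and 2.63.

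Transporters gave 9 loci with a median ratio of 2.67. ABC transporters, which use ATP to move substrates across membranes, made up 6 of them. A multidrug resistance type ABC transporter (Psat2g009080) had 113, 110 and 112 CPM after CO8-DA, against 30.0, 27.9 and 27.5 CPM in the control. The coefficient of variation was 1.27% after CO8-DA and 4.82% in the control, narrow beside the medians of 15.5% and 37.8% over the 79 loci. An ABC transporter of family B (Psat4g021240) had the highest ratio of the group, 5.84, with 76.6, 75.6 and 86.5 CPM after CO8-DA, against 17.3, 7.51 and 16.1 CPM in the control. The other family B locus, Psat6g159040, had 123, 124 and 108 CPM after CO8-DA, against 76.9, 46.6 and 50.7 CPM in the control. ABC transporter A family member 2 (Psat0s3007g0040) had 94.9, 80.7 and 102 CPM after CO8-DA, against 36.4, 24.8 and 42.9 CPM in the control.

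Carriers of other substrates were fewer. An amino acid transporter (Psat4g176240) had 117, 114 and 106 CPM after CO8-DA, against 64.1, 42.0 and 52.9 CPM in the control. A vacuolar iron transporter-like protein (Psat4g203680) and a nodulin MtN21/EamA-like transporter (Psat4g226200) had ratios of 2.46 and 2.96.

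Cell wall loci numbered 5, with ratios between 2.13 and 3.96. A pectinesterase/pectinesterase inhibitor (Psat0s1683g0120), of the enzyme class that removes methyl groups from pectin, had 104, 125 and 96.2 CPM after CO8-DA, against 36.8, 27.3 and 18.2 CPM in the control. A leucine-rich repeat extensin-like protein (Psat6g205760) had 104, 102 and 104 CPM after CO8-DA, against 43.1, 29.6 and 52.3 CPM in the control. A glycosyltransferase (Psat6g176040) had 107, 100 and 102 CPM after CO8-DA, against 59.0, 36.5 and 39.8 CPM in the control. In both, the CO8-DA libraries lay within a few percent of each other and the control libraries did not. Cell wall invertase II (Psat4g188080), which splits sucrose outside the cell, had 89.5, 101 and 96.5 CPM after CO8-DA, against 64.8, 26.7 and 43.1 CPM in the control. The remaining locus, Psat1g066080, had a ratio of 2.4.

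Among regulators, the set holds 2 transcription factors, 3 EF-hand calcium-binding proteins and 1 receptor kinase. An NF-X1-type zinc finger protein (Psat7g000840), whose Arabidopsis relatives act in stress responses, had 81.6, 85.8 and 78.6 CPM after CO8-DA, against 5.93, 3.82 and 3.66 CPM in the control. With a ratio of 18.3 and a coefficient of variation of 4.45% after CO8-DA, it joined a large difference with a narrow spread. A NAC transcription factor (Psat0s2882g0040), of a plant family with many stress-responsive members, had 66.1, 70.6 and 73.5 CPM after CO8-DA, against 16.9, 12.5 and 19.1 CPM in the control. A wall-associated receptor kinase-like protein (Psat5g040720), of a family that in Arabidopsis binds pectin and its fragments, had 91.8, 83.5 and 78.1 CPM after CO8-DA, against 50.6, 29.1 and 37.2 CPM in the control.

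Calcium-binding EF-hand proteins relay changes in cytosolic calcium. Psat0s4013g0040, matched to the calmodulin-type protein squidulin, had 49.6, 56.8 and 88.2 CPM after CO8-DA, against 15.9, 19.7 and 21.3 CPM in the control. Psat5g248000 had 43.6, 42.7 and 75.5 CPM after CO8-DA, against 25.7, 16.6 and 18.2 CPM in the control. Psat6g103200 had 41.1, 49.8 and 68.9 CPM after CO8-DA, against 22.6, 17.4 and 23.4 CPM in the control. All 3 were highest in CO8-DA replicate 3, the library with the largest total, and this replicate was the highest CO8-DA library at 41.8% of the 79 loci and at 48.0% of the 4225 other tested loci with a mean of at least 50 CPM after CO8-DA. The part of library size in this was not tested.

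Papain-type cysteine proteases gave 2 loci that lie close together on chromosome 1. Psat1g198600 had 119, 81.3 and 104 CPM after CO8-DA, against 5.04, 2.84 and 19.3 CPM in the control, a ratio of 11.2. Its log2 ratio was 3.49 with all libraries and 4.69 without control replicate 3. Psat1g198720 had 112, 77.5 and 114 CPM after CO8-DA, against 37.0, 24.2 and 76.1 CPM in the control, a ratio of 2.21. In Psat1g198720 the lowest CO8-DA library was barely above control replicate 3, the highest control library of both loci. Psat1g198720 was not called (edgeR adjusted p = 0.175).

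The 12 loci with other names had ratios between 2.03 and 20.1. Psat0s1368g0080, matched to Hop-interacting protein THI031, had 40.4, 40.9 and 71.2 CPM after CO8-DA, against 2.00, 1.38 and 4.21 CPM in the control. An uncharacterized protein (Psat1g222440) had 59.4, 62.6 and 61.5 CPM after CO8-DA, against 6.69, 4.55 and 8.08 CPM in the control. Both were low without treatment, at ratios of 20.1 and 9.50. A root cap/late embryogenesis-like protein (Psat7g224320) had 136, 146 and 167 CPM after CO8-DA, against 87.9, 9.91 and 70.3 CPM in the control. Without control replicate 2 its log2 ratio was 0.92, beside 1.42 with all libraries, and it was not called (edgeR adjusted p = 0.263).

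Of the rest of this group, Psat2g131480 (plant/T31B5-30 protein) had 131, 127 and 142 CPM after CO8-DA, against 39.5, 31.1 and 35.9 CPM in the control. Psat1g049080, matched to an unknown protein, had 180, 136 and 130 CPM after CO8-DA, against 61.1, 22.2 and 46.4 CPM in the control. Psat5g300680 had 150, 204 and 158 CPM after CO8-DA, against 120, 74.1 and 57.2 CPM in the control. The ratio was thus 3.75 in Psat2g131480, whose libraries lay close together, and 2.03 in Psat5g300680, the lowest of the set. An enzyme at the start of plastid isoprenoid synthesis, deoxyxylulose phosphate synthase (Psat1g186560), had a ratio of 2.48, and the remaining 5 loci had ratios between 2.23 and 3.54.

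The rule used the control values and favours loci with a low control library, so the following shares describe the loci and support nothing. Control replicate 2 was the lowest control library at 68 of the 79 loci (86.1%), beside 30.2% of the 4225 other tested loci with a mean of at least 50 CPM after CO8-DA. Its level relative to the control mean had a median of 0.636 over the 79 loci and of 1.01 over the others. It lay under 50% of both other controls at 26 of the 79 loci (32.9%) and at 29 of the others (0.686%). The median coefficient of variation over the 79 loci was 15.5% after CO8-DA and 37.8% in the control, beside 8.51% and 9.31% over the others. Control replicate 2 is also the library with the smallest total. Leaving out a library that is the lowest control at most loci raises the control mean by construction. Without it 65 of the 79 loci kept a ratio of at least 2, the median log2 ratio was 1.34, and the rule gave 66 loci. Leaving out any other library left 75 to 79 loci at a ratio of at least 2.

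**Figure D4:**
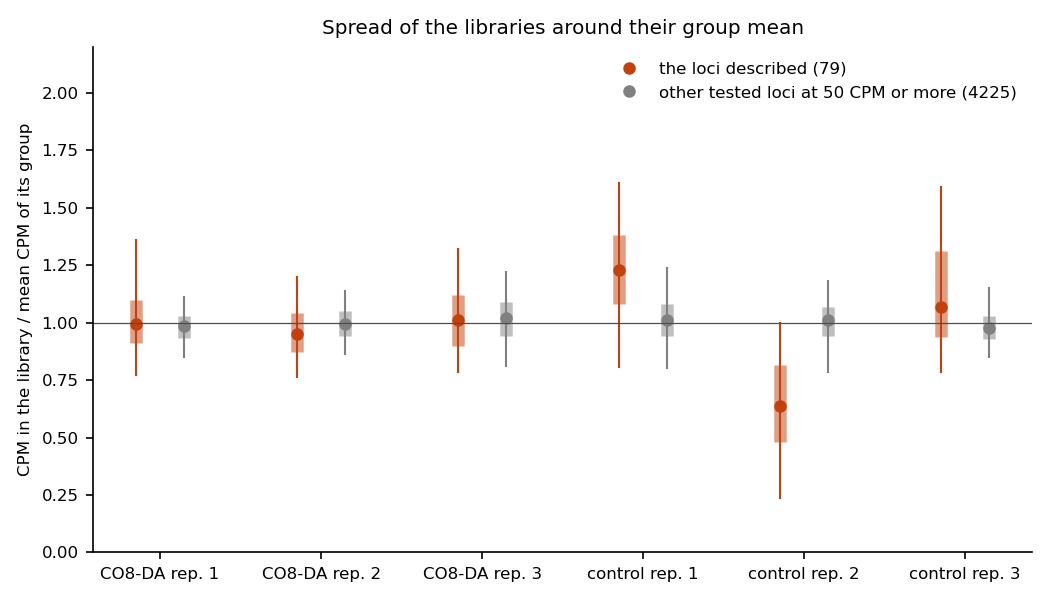
CPM of each library divided by the mean of its group, for the 79 loci described and for the 4225 other tested loci with a mean of at least 50 CPM after CO8-DA (point, median; thick bar, middle 50% of loci; thin line, middle 90%). Control replicate 2 lies at a median of 0.636 for the 79 loci and of 1.01 for the others, and the CO8-DA replicates lie near 1 in both.

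Reads shared with similar loci touched a minority of the set. Counts that were not whole, to a tolerance of 0.005, were found at 33 of the 79 loci (41.8%), beside 29.1% of all tested loci. Of the 21 loci not called by edgeR, 14 had such counts. For the 33 loci, which include 5 germins and 4 alcohol dehydrogenases, the level of a single copy is uncertain.

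Gene Ontology text in the study's annotation was at hand for 66 of the 79 loci and for 413 loci called higher outside the set, and it was shortened in 23 and 105 of them. The 66 loci include some that edgeR did not call. An oxidation-reduction term stood at 18 of the 66 loci (27.3%) and at 37 of the 413 (8.96%). Terms for the cell wall, apoplast or extracellular region stood at 20 (30.3%) of the set and at 44 (10.7%) of the others. Kinase or phosphorylation terms stood at 3 (4.55%) of the set and at 63 (15.3%) of the others, and a response to chitin at 3 (4.55%) and 50 (12.1%). A response to wounding stood at 4 (6.06%) of the set and at 39 (9.44%) of the others, and a transcription factor term at 1 (1.52%) and 15 (3.63%). No difference between these shares was tested, since the annotation was selected on the same libraries.

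The loci are spread over all 7 chromosomes, with 15 on chromosome 1, 16 on chromosome 7 and 8 on unplaced scaffolds, and 15 of them form 7 runs of neighbours with identifiers within 5 steps of each other. Around the 79 loci, 312 other tested loci lay within 5 steps. edgeR called 20 of these higher (6.41%, beside 2.63% of all tested loci) and 2 lower (0.641%, beside 0.493%). The difference between these shares was not tested. The median log2 ratio of the 312 loci was 0.04. Of the 20 higher neighbours, 10 had whole counts and 6 had the same best match as a nearby locus of the set. Most neighbours were not called, including every tested neighbour in the runs of harpin-induced-like, germin and PAR1 loci.

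Around the papain-type proteases, neighbours were called in the same direction. Psat1g198520, another papain-type protease with whole counts, had 50.5, 35.4 and 42.4 CPM after CO8-DA, against 0.138, 0.162 and 1.38 CPM in the control (log2 fold change 6.17, SE 0.53, edgeR adjusted p = 0.000935). It missed the set only by its level. Psat1g198680 had 58.9, 39.5 and 45.9 CPM after CO8-DA, against 0.624, 1.08 and 6.63 CPM in the control (log2 fold change 4.06, SE 0.67, edgeR adjusted p = 0.0152). A papain-type locus at the end of the run, Psat1g198800, had 11.9, 9.72 and 16.5 CPM after CO8-DA, against 32.3, 15.3 and 58.8 CPM in the control, and was not called (log2 fold change -1.50, SE 0.45, edgeR adjusted p = 0.122).

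Called neighbours of other loci of the set were mostly higher, and both lower ones are given here. Beside the beta-glucanase Psat7g179640, its neighbour of the same match, Psat7g179600, had 17.3, 16 and 17.8 CPM after CO8-DA, against 2.55, 1.38 and 1.24 CPM in the control (log2 fold change 3.28, SE 0.25, edgeR adjusted p = 0.000625). Beside Psat1g157000, the disease resistance response protein DRRG49-C (Psat1g157160) had 29.6, 21.8 and 13.1 CPM after CO8-DA, against 121, 271 and 159 CPM in the control (log2 fold change -3.12, SE 0.39, edgeR adjusted p = 0.00455). Beside the peroxidase Psat7g229880, the class III peroxidase Psat7g229840 had 1.16, 0.193 and 0.512 CPM after CO8-DA, against 7.19, 29.2 and 14 CPM in the control (log2 fold change -4.82, SE 0.69, edgeR adjusted p = 0.00868). In both lower neighbours control replicate 2 was the highest library, and both share reads with other loci.

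Other runs showed loci with similar profiles. The hypothetical protein loci Psat2g026840 and Psat2g027040 on chromosome 2 had 55.5, 132 and 83.2 CPM and 55.0, 142 and 83.1 CPM after CO8-DA, against 46.7, 29.0 and 33.3 CPM and 43.8, 12.4 and 30.2 CPM in the control. CO8-DA replicate 2 was the highest and replicate 1 the lowest CO8-DA library in both, and both share reads. The adjacent alcohol dehydrogenases Psat1g086480 and Psat1g086520 had 77.4, 68.8 and 80.4 CPM and 59.3, 61.9 and 67.8 CPM after CO8-DA, against 33.5, 14.5 and 35.1 CPM and 32.4, 17.2 and 40 CPM in the control. Of the germins on chromosome 7, Psat7g151760 had 64.4, 75.3 and 110 CPM after CO8-DA, against 32.3, 11.2 and 43.1 CPM in the control, the same order of libraries as in its neighbour Psat7g151720.

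**Figure D5:**
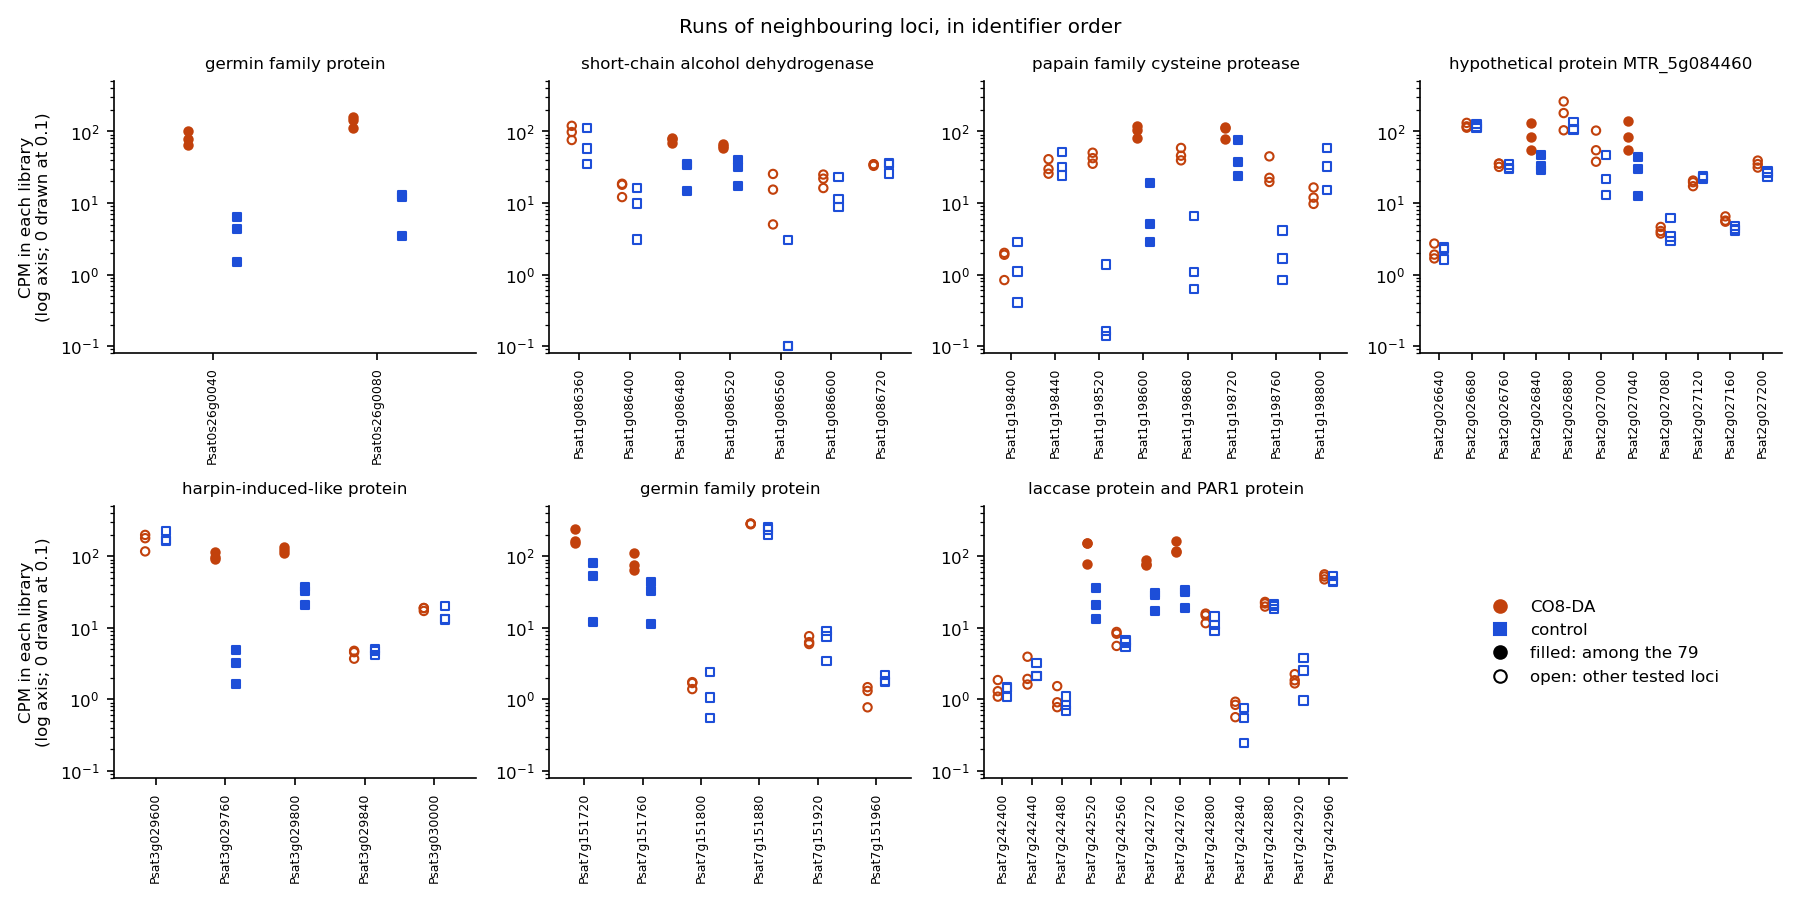
CPM in each library (log axis) along the 7 runs of neighbouring loci, in the order of their identifiers, with CO8-DA circles left of control squares and loci of the set filled. The papain-type run holds open loci with CO8-DA far above control, such as Psat1g198520 at a log2 fold change of 6.17, whereas open loci beside the harpin-induced-like, germin and PAR1 loci lie at similar levels in both groups.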

How the data were processed

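RNA-seq libraries of pea roots, 3 after CO8-DA and 3 control, were grouped by their titles. The deposited values are estimated counts per locus of the pea genome v1a, which the authors made with RSEM, without normalization. Per the submitters' processing notes, Trimmomatic 0.39, Bowtie2 2.4.4 and RSEM 1.3.1 were used. RSEM divides reads between similar loci, and a count that missed a whole number by at least 0.005 was taken to hold shared reads. The library kit keeps strand, but strand use in counting is not given in the sources used here, so antisense partners may share counts.

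CPM were computed from column totals. Whole-number rounding preceded the edgeR 4.0.16 fit (R 4.3.3, TMM scaling, filterByExpr, quasi-likelihood test without robust estimation, two-sided, Benjamini-Hochberg adjustment over 21293 loci). Alternatives were DESeq2 1.42.0, limma-voom (limma 3.58.1), other scalings, filters and thresholds, a replicate block and each library left out. The main edgeR fit was tested on simulated data, and the alternatives were not. Python 3.11.15, pandas 2.3.3 and matplotlib 3.10.9 made tables and plots. The edgeR p-values set the group difference against the spread between these 3 libraries per group, with that spread moderated over all tested loci.

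The loci and lists were chosen with earlier results of these data known. Named with values in every library are, per role group, the 4 loci with the highest mean after CO8-DA and the 2 with the highest ratio. The same holds for all loci of the set in runs and for the lower loci of the phenylpropanoid list. The loci nearest the limits on ratio and level were also named, some with a ratio or a mean only. Roles came from keywords in the best database match, and some loci were placed in a role by hand. Other neighbours and list loci were named after their values were seen.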

Additional observations from a re-analysis of the deposited data

How the results depend on the processing

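The set of 79 loci held 78 under TMM, DESeq2 or upper quartile scaling, 102 at a minimum of 40 CPM, 32 at 100 CPM and 46 when only loci with whole counts were kept. Leaving out each library gave 66 to 102 loci by the rule, 338 to 778 loci called higher, 33 to 165 called lower, 35 to 65 of the 79 called, 5 to 16 of the phenylpropanoid list higher and 2 to 3 lower, and a median log2 ratio of 1.34 to 1.79, with 1.34 without control replicate 2. These fits have 2 libraries in 1 group. edgeR called 31 of the 79 in all 6 of them. The choice of the loci favours such calls, and the share of all tested loci called in all 6 was not computed. DESeq2 called 196 loci lower, against 105 by edgeR, and 256 were lower with no fold change threshold. At an adjusted p under 0.01, 289 loci were higher, 26 lower, 31 of the 79 and 5 of the phenylpropanoid list higher. Of 711 alternative values of single loci, 708 stayed within the replicate spread, 3 moved beyond it and 0 changed sign. The rule fixed the sign of values with 1 library left out, since every CO8-DA library lies above every control library. The median log2 ratio of all tested loci was 0.01 with column totals, -0.01 with TMM or DESeq2 size factors and -0.02 with upper quartile scaling.

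With replicate number as a block, 588 loci were called higher, 118 lower and 70 of the 79. Deviations of same-numbered libraries correlated at 0.23, 0.04 and 0.15, and not every library correlated best with its own number, so the numbers were not taken as pairs.

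Depth bears on the least abundant values here. Control counts of the 79 loci summed to at least 91.98 over 3 libraries.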

Other observations

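Among the 30 loci called lower by edgeR with a control mean of at least 50 CPM, control replicate 2 was the highest control library at 11 (36.7%). The same share, 36.7%, was found among the 4225 other tested loci with a mean of at least 50 CPM after CO8-DA. These shares were not tested.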
